A study of Ovis aries with 7 samples.

Results

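Heat-shock chaperones, their DNAJ co-chaperones and the CCT chaperonin subunits were described in 8-cell embryos of the sheep, Ovis aries. The genes were chosen by name alone: DNAJA, DNAJB or DNAJC, HSPA, HSPB, HSPD, HSPE or HSPH followed by a number, any name starting with HSP90, and CCT2 to CCT8 with their variants. The rule found 76 of 31304 rows. It uses no measured value, but it was set with earlier results of these data known. PolyA RNA was sequenced by the Smart-seq2 method, which copies and amplifies small amounts of mRNA, in 3 libraries of embryos made by in vitro fertilization (IVF), the union of egg and sperm in culture. The study also labels 4 libraries of cloned embryos from somatic cell nuclear transfer (SCNT), for which an enucleated egg receives the nucleus of a body cell. They were not analysed here, because the names of the 4 remaining columns of values match no sample label, so no difference between SCNT and IVF is given. Values are TPM, a transcript abundance scaled for the length of the gene and the total of the library, and errors are the SD over n = 3 IVF libraries. How many embryos a library holds is not given, and in such bulk samples fewer cells of a type and less RNA per cell cannot be told apart.

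Chaperones bind unfolded protein and help it reach its native shape. Members of the HSP70 family (HSPA genes) do so in cycles of ATP hydrolysis, which J proteins (DNAJ genes) start by delivering a client and which nucleotide exchange factors such as HSPH1 reset. HSP90 proteins act later, on near-native clients such as kinases and receptors, the TRiC ring built from CCT subunits encloses newly made actin and tubulin, and small heat-shock proteins (HSPB genes) hold unfolded proteins without using ATP. An early embryo lives first on protein and RNA stored in the egg, and inducible HSP70 is known from mouse as one of the first genes read when the embryo starts its own transcription.

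The embryo markers fixed for a check of the labels were present in 6 of 6 cases at 1 TPM or more in every library, with ARGFX at 376, 1022 and 444 TPM in replicates 1, 2 and 3. Of 6 cumulus and granulosa markers fixed, 5 had a row. Of these, 2 reached that level throughout, led by GATM at 46.2 ± 19.3 TPM. PTX3 was listed at 0, although it lies wholly inside another gene. Of the fibroblast markers 2 of 6 reached that level throughout, led by VIM at 7.90 ± 1.25 TPM. The summed level of the cumulus list was 43.4 to 78.5 TPM over the libraries and that of the fibroblast list 11.1 to 18.5 TPM. Their part in the levels below was not tested.

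Most chaperone genes had RNA in these embryos. Of the 76 members, 59 (77.6%) were at 1 TPM or more in every library, against 49.0% of 16527 rows with a gene symbol. A further 4 reached 1 TPM in some libraries only, and 13 stayed below it in all. The median member had a mean of 12.6 TPM, with medians of 10.8, 14.4 and 10.1 in replicates 1, 2 and 3, and the median symbol row had 1.58. A mean of at least 100 TPM was reached by 11 members (14.5%), against 5.79% of symbol rows. Together the members took 0.384, 0.401 and 0.377% of all TPM in replicates 1, 2 and 3, a mean of 0.387 ± 0.0127%.

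**Figure D1:**
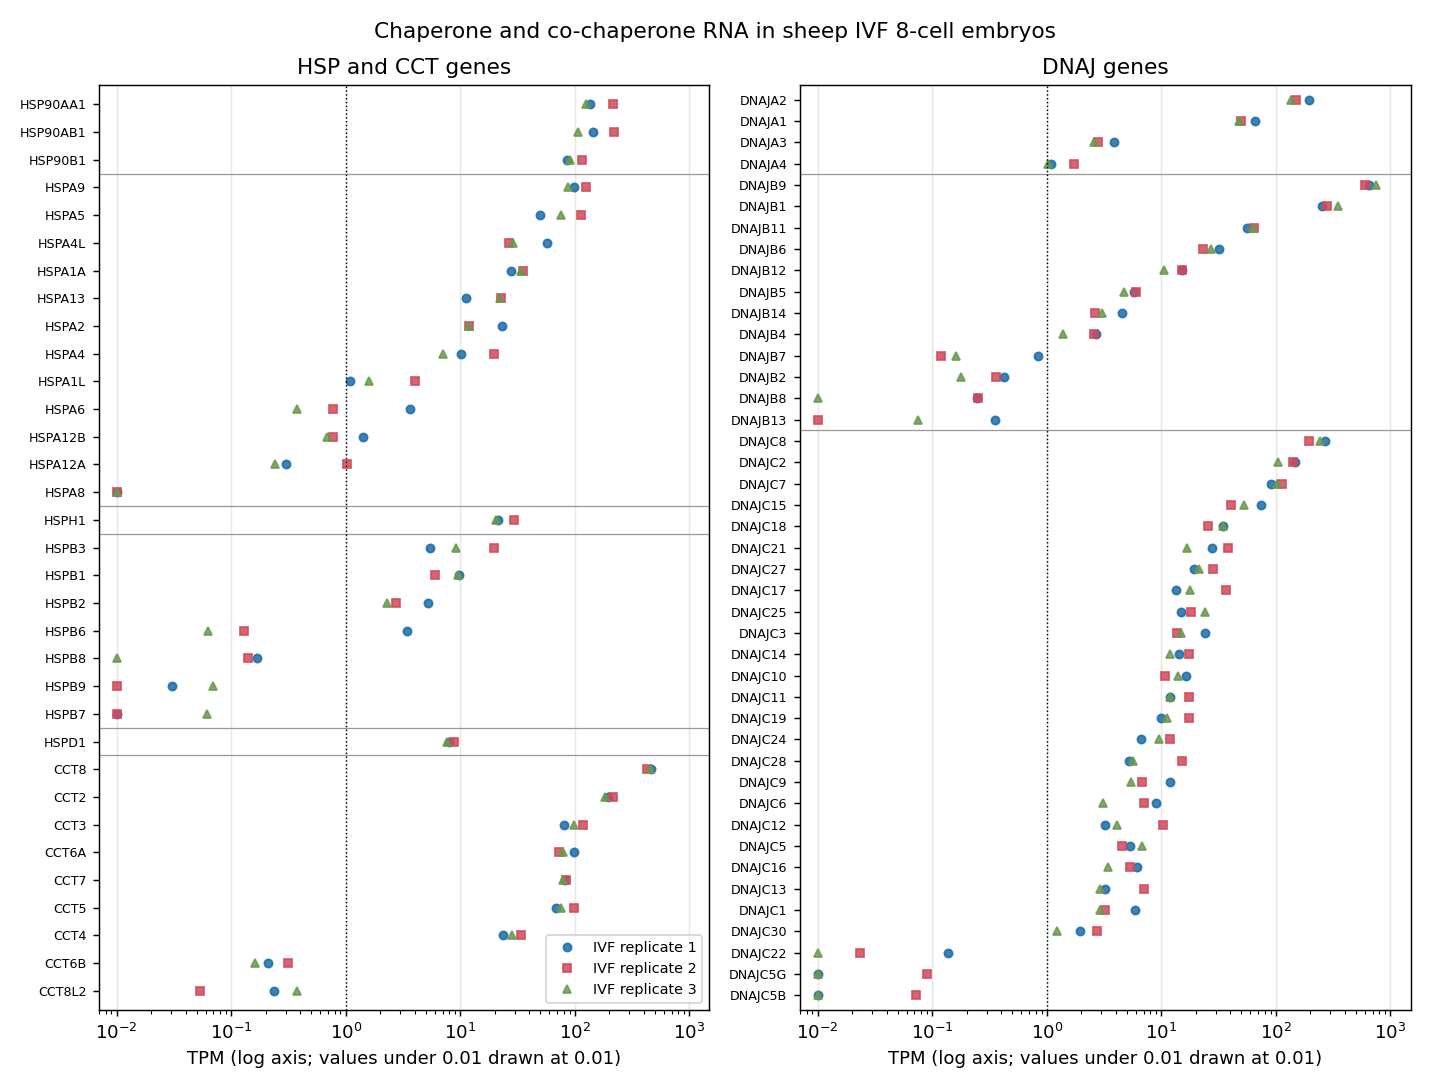
TPM of all 76 genes (log axis) in the 3 IVF libraries, by family and ordered by mean within each; each symbol is 1 library and the dotted line marks 1 TPM. DNAJB9 lies highest at 597 to 747 TPM, and HSPA8 is at 0 in every library.

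The RNA was concentrated in few genes. DNAJB9 alone held 17.2% of the summed mean TPM of the members, the top 5 held 47.6% and the top 10 held 66.0%. Among 59 members detected in every library and ranked by mean, 8 of 58 steps between neighbours were larger than their SD and had the same sign in every library. The first of these were DNAJB9 over CCT8, CCT8 over DNAJB1, CCT2 over DNAJA2, DNAJC2 over HSPA9 and DNAJA1 over HSPA4L. Neighbours outside these 8 steps did not differ beyond their spread. The ranking used the same values as the steps, which largely sets their direction.

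By family, DNAJB genes had a summed level of 1075 ± 114 TPM, CCT genes 1022 ± 24.2 and DNAJC genes 780.4 ± 48.7. HSP90 genes followed at 413 ± 119, HSPA genes at 305 ± 48.8 and DNAJA genes at 220.4 ± 41.0. The HSPB family reached 24.8 ± 3.84, HSPH1 23.7 ± 4.79 and HSPD1 8.19 ± 0.607. The sum of the HSPA family holds nothing from HSPA8, which is listed at 0. The CCT sum was even across the libraries, at 1013, 1049 and 1003 TPM in replicates 1, 2 and 3, whereas the HSP90 sum was 367, 548 and 323, highest in replicate 2.

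**Figure D2:**
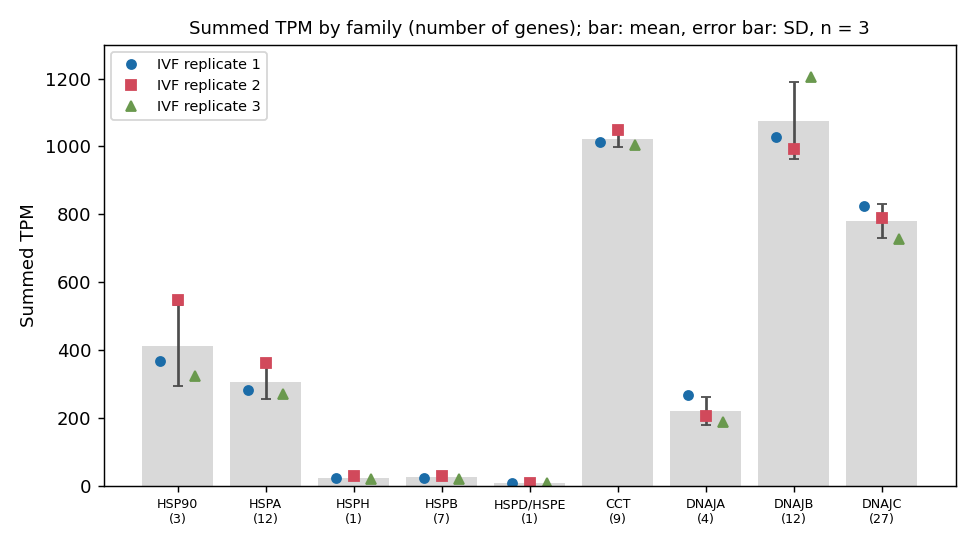
Summed TPM of each family (number of genes in brackets); the bar is the mean, the error bar the SD over 3 IVF libraries, and each symbol 1 library. DNAJB and CCT genes lie highest, at means of 1075 and 1022 TPM, and HSP90 genes are set apart by replicate 2 at 548.

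Among HSP90 genes the stress-inducible and the constitutive cytosolic forms were nearly level. HSP90AA1, the inducible form, was at 136, 214 and 126 TPM in replicates 1, 2 and 3. HSP90AB1, the constitutive form, was at 145, 219.6 and 106 TPM. Both were highest in replicate 2, and the difference HSP90AB1 minus HSP90AA1 on the log2(TPM + 1) scale, -0.04 ± 0.18, was smaller than its spread and had mixed signs. These related genes may share some reads, and the effect of that on the split between them was not tested. HSP90B1, the form of the endoplasmic reticulum (ER), was at 85.6, 114.5 and 91.0 TPM and lay below HSP90AB1 by a log2 difference of -0.63 ± 0.37, with the same sign in 3 of 3 libraries.

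Cytosolic HSP70 genes showed an uneven picture. HSPA8, the constitutive HSP70 that most cells use heavily, was listed at 0 in all 3 libraries. Its span lies wholly inside that of other genes in the RefSeq gene table, namely CLMP (mean 0.111 TPM), a transcribed pseudogene and small nucleolar RNA genes, and the sources used here do not say how reads there were assigned. HSPA1A, the inducible HSP70, was at 27.6, 35.6 and 33.9 TPM, close together across libraries. HSPA1A lies wholly inside another gene, its paralog HSPA1L, which was at 1.09, 3.99 and 1.59 TPM, and the pair may share reads. HSPA2, a form known from meiotic male germ cells, was at 23.1, 11.99 and 12.03 TPM, highest in replicate 1. HSPA6, a second strictly inducible form, was at 3.64, 0.781 and 0.377 TPM and reached 1 TPM in replicate 1 only. HSPA12B (0.963 ± 0.405 TPM) and HSPA12A (0.520 ± 0.433 TPM), distant relatives of HSP70, were at 1 TPM or more in 1 library each.

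HSP110-type exchange factors release ADP from HSP70. HSPA4L, a form known from testis, was at 56.7, 26.7 and 29.1 TPM, highest in replicate 1. HSPH1 was at 21.5, 29.2 and 20.3 TPM, below HSPA4L in replicates 1 and 3 and above it in replicate 2. HSPA4 was at 10.2, 19.6 and 7.09 TPM, highest in replicate 2. HSPA4 lay below HSPH1 by -0.99 ± 0.42 (log2, 3 of 3 libraries).

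ER chaperones held the most abundant member. DNAJB9, a J protein that serves the ER HSP70 and is induced by unfolded protein, was at 656, 597 and 747 TPM in replicates 1, 2 and 3, higher than 98.9% of symbol rows. HSPA5, that ER HSP70 itself, was at 49.9, 113 and 75.7 TPM. DNAJB9 thus exceeded HSPA5 in each library, and the libraries of the 2 genes did not overlap. DNAJB11, the J protein that acts with HSPA5 on secreted proteins, was at 55.6, 64.0 and 63.7 TPM and was steadier than HSPA5. The difference DNAJB9 minus DNAJB11 was 3.42 ± 0.19 (log2, 3 of 3 libraries). Apart from HSP90B1, given above, the remaining members placed in the ER group were lower. HSPA13 had a mean of 18.7 TPM, DNAJC3, known as an inhibitor of the stress kinase EIF2AK3, 17.5, and the disulfide reductase DNAJC10 13.7. The membrane J proteins DNAJB12 and DNAJB14 had 13.6 and 3.42, and DNAJC1 4.01. All 10 members of this group were at 1 TPM or more in every library, beside 49.0% of symbol rows. Their summed level was 975 ± 62.3 TPM, of which DNAJB9 was the larger part. The group was made by hand, so other members that act in the ER may be missing from it.

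Of 28 listed ER folding and unfolded protein response genes, 26 were at 1 TPM or more in every library, beside 49.0% of symbol rows. The median of the list was 11.5, 10.1 and 9.05 TPM in replicates 1, 2 and 3. SELENOS, a selenoprotein of ER-associated degradation, was highest at 661, 582 and 784 TPM. MANF, a secreted protein induced by ER stress, followed at 242, 176 and 262, and the disulfide isomerase PDIA3 at 257, 119 and 166. PDIA3 was thus highest in replicate 1 and lowest in replicate 2, the reverse of HSPA5. The stress transcription factor gene DDIT3 was listed at 0 and lies wholly inside other genes, among them MARS1 at 4.87 ± 0.763 TPM. EIF2AK3 was at 0.683, 3.22 and 0.966 TPM.

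Mitochondrial members were led by HSPA9, the mitochondrial HSP70, at 98.2, 124 and 87.1 TPM. HSPA5 lay below HSPA9 by -0.43 ± 0.46 (log2), a difference smaller than its spread. DNAJC15 and DNAJC19, related J proteins of the inner membrane, were at 74.5, 41.0 and 52.4 TPM and at 9.89, 17.4 and 11.1 TPM. The order of the libraries was opposite for these genes, and DNAJC19 minus DNAJC15 was -2.04 ± 0.81 (3 of 3 libraries). HSPD1, the folding chamber of the mitochondrial matrix, was at only 8.01, 8.86 and 7.68 TPM. MOB4, at 89.2 ± 14.9 TPM, covers 58.6% of the span of HSPD1, and the part of that overlap in the low value was not tested. DNAJC11 of the inner membrane organising complex had a mean of 13.7 TPM, the matrix J protein DNAJA3 3.07. DNAJC30, which binds the ATP synthase, was at 1.95, 2.75 and 1.22 TPM, the lowest DNAJC gene detected in every library.

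Cytosolic J proteins of the DNAJA and DNAJB families ranged widely. DNAJB1, the main stress-inducible partner of HSP70, was at 254, 282 and 347 TPM in replicates 1, 2 and 3. DNAJB6, which keeps aggregation-prone proteins soluble, was at 32.2, 23.1 and 27.4 TPM, a log2 difference from DNAJB1 of -3.37 ± 0.37 (3 of 3 libraries). DNAJB5, a close relative of DNAJB1, had a mean of 5.51 TPM. DNAJB4, also a relative of DNAJB1, was at 2.69, 2.59 and 1.38 TPM, the lowest DNAJB gene detected in every library. Within the DNAJA genes, DNAJA2 was at 195.5, 151.5 and 137 TPM and DNAJA1 at 66.2, 50.03 and 47.9. The 2 genes kept nearly the same ratio in each library, with DNAJA1 minus DNAJA2 at -1.54 ± 0.04 (3 of 3 libraries). DNAJA4 was at 1.10, 1.74 and 1.03 TPM, the lowest of the family, and DNAJA1 exceeded it by 4.60 ± 0.39.

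DNAJC genes, whose proteins share the J domain and little else, covered a wide range. DNAJC8, a protein associated with the spliceosome, was at 267, 194 and 244 TPM. DNAJC2, which sits on the ribosome with an HSP70 relative, was at 147, 142 and 105 TPM. DNAJC7, whose repeats bind both HSP70 and HSP90, was at 90.5, 114 and 103 TPM. In every library these genes lay above all other DNAJC genes. DNAJC18 was at 34.4, 25.8 and 34.3 TPM, and DNAJC21, a factor for making the large ribosomal subunit, at 28.0, 38.3 and 16.7. DNAJC27, which joins a J domain to a Rab-like GTPase, had a mean of 22.9 TPM, DNAJC17, with an RNA recognition motif, 22.7, DNAJC25 19.1 and DNAJC14 14.6. DNAJC24, an enzyme cofactor in diphthamide synthesis, had 9.42, DNAJC28 8.64, the histone chaperone DNAJC9 8.02, the clathrin uncoating factor DNAJC6 6.41, DNAJC12 5.88, the synaptic vesicle protein DNAJC5 5.56, DNAJC16 4.98 and the endosomal DNAJC13 4.41. In all 24 of 27 DNAJC genes were at 1 TPM or more in every library, beside 49.0% of symbol rows.

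The TRiC ring takes its 8 kinds of subunit in equal number, and their RNA levels were not equal. CCT8 was at 463, 427 and 458 TPM in replicates 1, 2 and 3. CCT4 was at 23.6, 33.7 and 28.1 TPM. CCT8 exceeded CCT4 by a ratio of means of 15.8, with 19.6, 12.7 and 16.3 in the single libraries. The other ring genes stood closer together: CCT2 was at 197, 215.5 and 184 TPM, and CCT3 at 80.7, 117 and 98.5. CCT6A was at 98.4, 73.1 and 79.6 TPM, CCT7 at 81.6, 83.2 and 79.5, and CCT5 at 68.9, 98.6 and 75.4. The last 4 overlap across libraries. TCP1, the first ring subunit, whose name the rule does not match, was at 234, 137 and 127 TPM, highest in replicate 1. Without CCT4 and CCT8, a choice made after their values were seen, the highest ring gene stood at 2.45 times the lowest. CCT6B, a testis form of CCT6A, was at 0.211, 0.311 and 0.162 TPM, and CCT6A exceeded it by 6.10 ± 0.27 on the log2(TPM + 1) scale, which understates the ratio for so low a gene. CCT8L2, a CCT8-like gene known from testis, was at 0.238, 0.0538 and 0.373 TPM and makes the ratio over all 9 CCT rows 2026. That ratio rests on a gene near 0 and was 3046 without replicate 3.

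Prefoldin, which hands unfolded actin and tubulin to TRiC, and further partners of the ring were present at 13 of 14 listed genes. That count is of genes at 1 TPM or more in every library, a level reached by 49.0% of symbol rows. VBP1 was at 785, 1100 and 717 TPM, PFDN1 at 542, 677.5 and 687, and PFDN5 at 281, 832 and 612.5. All 3 exceeded each TRiC ring gene but CCT8 in every library. PFDN2, a subunit present in prefoldin like the others, was at 1.57, 0.204 and 0.295 TPM. Other genes cover 93.6% of its span, chiefly KLHDC9 at 0.411 ± 0.291 TPM, and the part of that overlap was not tested.

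**Figure D3:**
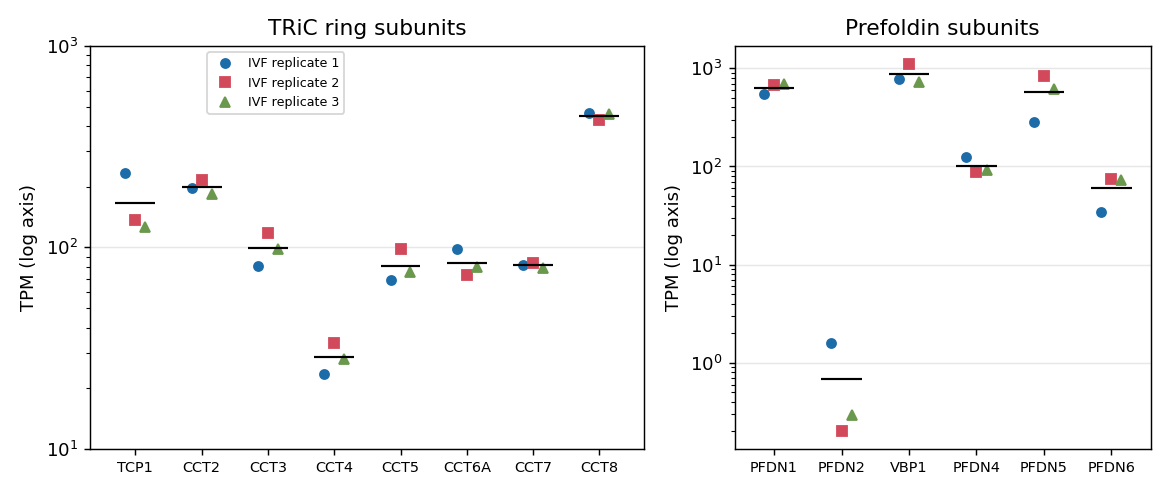
TPM (log axes, different ranges) of the 8 TRiC ring subunits and the 6 prefoldin subunits in the 3 IVF libraries; each symbol is 1 library and each line the mean. CCT8 lies highest and CCT4 lowest of the ring, a ratio of means of 15.8, and PFDN2 lies far below the other prefoldin genes.

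Of the small heat-shock genes named HSPB, 3 of 7 were at 1 TPM or more in every library, beside 49.0% of symbol rows. HSPB3, known from muscle, was at 5.47, 19.9 and 9.25 TPM, with replicate 2 above the others. HSPB1, the widely expressed form, was at 9.78, 6.08 and 9.65 TPM, above HSPB3 in replicates 1 and 3 and below it in replicate 2. HSPB2, also known from muscle, was at 5.25, 2.76 and 2.31 TPM. HSPB6 was at 3.44, 0.131 and 0.0630 TPM, so replicate 1 alone reached 1 TPM. HSPB8 (mean 0.102 TPM), HSPB9 (0.0332) and HSPB7 (0.0207) stayed below 1 TPM in every library, and HSPB7 lies wholly inside another gene.

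In all, 13 members (17.1%) stayed below 1 TPM in every library, beside 38.8% of symbol rows. They were DNAJB7, DNAJB8, DNAJB13, DNAJC5B, DNAJC5G, HSPB9, CCT6B and CCT8L2, forms known from testis, and 5 others. The testis forms HSPA1L, HSPA2 and HSPA4L were at 1 TPM or more throughout, so 8 of 11 such members were below it, in a group made after the values were seen. DNAJB7 lies wholly inside XPNPEP3 and had a mean of 0.372 TPM. The 5 others were HSPA8, HSPB7 and HSPB8, given above, the neuronal DNAJB2 at 0.420, 0.360 and 0.178 TPM, and DNAJC22 at 0.137, 0.0236 and 0. Overlap with other genes touched several low members, and also HSPA1A at a mean of 32.4 TPM. Of the 76, 4 have their whole span covered by other genes and 8 have at least 50% of it covered. The median mean of those 8 was 2.68 TPM, against 13.7 TPM for the remaining members. The share of all symbol rows with such overlap was not computed, and the part of overlap in these levels was not tested.

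Spread between libraries was moderate for most members. For 49 members whose mean was 5 TPM or more, the median coefficient of variation was 19.9%, against 28.8% over all 6978 such rows. These values are a description without a test, and the groups share only that floor. Among genes detected in every library the median level was 19.1 TPM for members and 11.2 TPM for symbol rows. The part of level in the lower variation was not tested. CCT7 and CCT8 were the steadiest of the abundant members, with coefficients of 2.31 and 4.27%. Across the 59 detected members the Spearman coefficient was 0.936 for replicates 1 with 2, 0.973 for 1 with 3 and 0.967 for 2 with 3. These are across genes, which are not independent replicates.

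Single libraries still stood apart for a few members. In replicate 2, 5 of 49 members (10.2%) were at least 2-fold above the mean of the other libraries on the log2(TPM + 1) scale, beside 12.8% of all rows, and none was 2-fold below, beside 3.85%. In replicate 1, 0 of 49 were above (all rows 5.65%) and 1 was below (7.71%). In replicate 3, 0 were above (0.817%) and 1 was below (2.62%). The members' shares were thus near or under those of all rows. The 5 genes higher in replicate 2 were HSPB3, DNAJC28, DNAJC12, DNAJC17 and HSPA4. DNAJC28 was at 5.23, 15.04 and 5.64 TPM, a log2 difference of 1.32. DNAJC12, which binds aromatic amino acid hydroxylases, was at 3.22, 10.3 and 4.11, a difference of 1.28. DNAJC17 was at 13.4, 36.8 and 17.8, a difference of 1.203, and HSPA4, given above, differed by 1.11 and HSPB3 by 1.36. HSPB3 was also the gene lower in replicate 1, at -1.18. DNAJC6 was the gene lower in replicate 3, at 9.06, 7.07 and 3.09 TPM and -1.14. HSPA4L missed the limit in replicate 1 with 0.999 (log2).

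The split between higher and lower members depended on scaling. In replicate 2, 63.3% of the 49 members were higher than in the other libraries by TPM, with a median log2 difference of 0.21, against 60.3% of all rows with 0.19. With median-of-ratios size factors, whose log2 values were -0.07, 0.25 and -0.14 in replicates 1, 2 and 3, 44.9% of members were higher with a median of -0.12, beside 41.8% of 6925 rows. HSPB3 was then the single member at least 2-fold above (2.04%), beside 4.75% of those rows. The share of members that were higher went from 40.8 to 55.1% in replicate 1 (all rows 46.0 to 53.2%) and from 34.7 to 55.1% in replicate 3 (all rows 38.4 to 58.9%).

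**Figure D4:**
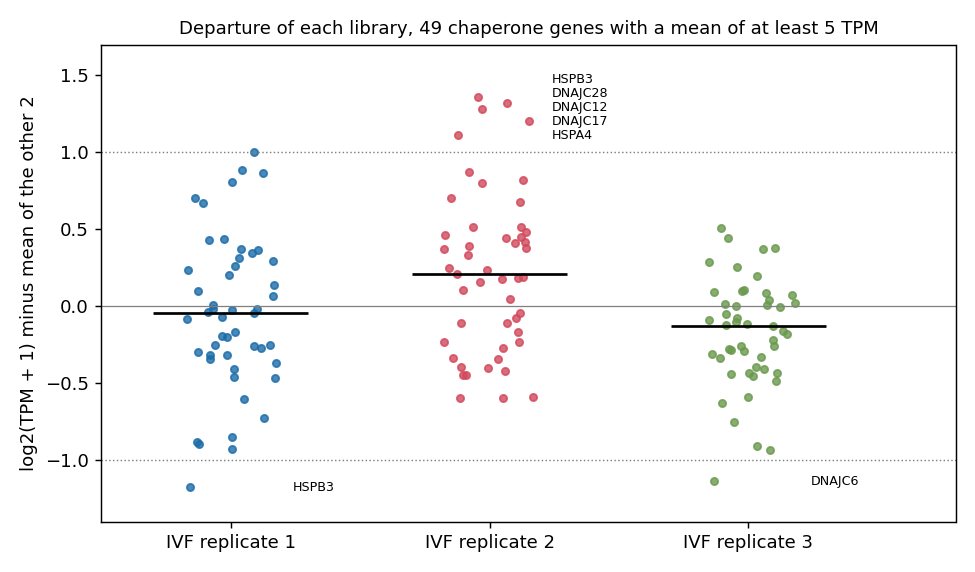
Difference of each IVF library from the mean of the other 2, log2(TPM + 1), for 49 genes whose mean was 5 TPM or more; each point is 1 gene, the line is the median and dotted lines mark 2-fold. Replicate 2 has 5 genes beyond 2-fold upward, and its median of 0.21 becomes -0.12 with median-of-ratios size factors.

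The list of cofactors that steer HSP70 and HSP90 also holds relatives of these chaperones, such as TRAP1 and HYOU1. Of its 33 genes, 31 were at 1 TPM or more in every library, beside 49.0% of symbol rows. Their medians were 22.5, 17.98 and 21.7 TPM. PTGES3, a co-chaperone of HSP90, was highest at 533, 410 and 463 TPM. It exceeded HSP90AA1 and HSP90AB1 in each library. HSBP1, a binding protein of heat-shock factor, was at 190.5, 227 and 245 TPM, and GRPEL1, the exchange factor of HSPA9, at 199, 110.5 and 187. By TPM, GRPEL1 was lowest in replicate 2, where HSPA9 was highest. In that library 60.3% of 6978 rows were also higher than in the others by TPM. The listed cofactors that did not reach 1 TPM throughout were BAG3 and BAG4, HSP70 exchange factors, at means of 0.674 and 1.06 TPM.

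Heat-shock factors, the transcription factors that switch on these chaperones, were led by HSF2, known for roles in germ cells and development, at 53.0, 42.6 and 59.0 TPM. HSF1, the main factor of the stress response, was at 31.3, 15.1 and 22.4 TPM and lay below HSF2 in each library. HSF2BP, a partner of HSF2, was at 14.9, 12.8 and 9.03. HSF4 had a mean of 0.676 TPM. Of 5 listed genes, 4 were at 1 TPM or more in every library, beside 49.0% of symbol rows. With 3 libraries of a single kind, the smallest p of an exact sign-flip test, two-sided, is 0.25 for any such pair, so none was run.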

How the data were processed

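RNA of 3 IVF libraries was taken from the deposited table of TPM, made by the authors from paired 150-nucleotide reads after 20 PCR cycles, per the labels' protocols. Per the submitters' processing notes, fastp 0.23.4 and HISAT2 2.2.1 were used on the reads, and the builds named are of mouse and pig. The sources used here do not name the sheep genome, annotation or counter behind the table. Each column sums to 1000000, so depth is unknown and no interval or floor is given. The labels do not say which libraries came from separate trials, so the spread may be partly technical. Columns were matched to samples by name, and 4 columns of per-sample values matched none and were not used.

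All 76 names matched the ARS-UI_Ramb_v3.0 RefSeq gene table. It supplied overlaps of whole gene spans, without strand, and since the builds may differ no coordinates are given. Members and lists were chosen with earlier results of these data known. Groups by cell compartment or testis expression were made from general knowledge after the values were seen. Values per library were to be given for the 25 highest members, the highest and lowest detected of each family, the 5 with the largest ratio between libraries, 12 pairs, CCT subunits, and the 3 highest genes of each of 7 lists. Of the pairs, 10 were compared, since the rule found no row named HSPE1 or HSPA14. Sequence features and LOC rows of chaperone-like genes were planned and not analysed here. A pseudocount of 1, a limit of 1 TPM for detection and a mean of at least 5 TPM for 2-fold counts were used, and the counting step was tested on simulated data. Alternatives were other thresholds, pseudocounts, scalings, and leaving out each library. Python 3.11.15, numpy 2.4.6, pandas 2.3.3 and matplotlib 3.10.9 were used.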

Additional observations from a re-analysis of the deposited data

How the results depend on the processing

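No paired analysis was possible because only IVF libraries were used. Apart from leaving out libraries, alternatives gave 95 values: 63 stayed within 1 SD of the libraries (counts: within 1.5 times), 32 did not, and 0 changed sign. Only pair differences can take either sign. A pseudocount cannot reverse a pair with the same sign in every library, so that 0 carries little information. Removing mitochondrially encoded and ribosomal protein rows rescales all genes upward by construction, to a median of 15.2 TPM and sums of 368 (HSPA), 28.6 (HSPH1), 29.98 (HSPB), 9.87 (HSPD1), 1231 (CCT), 265 (DNAJA), 1294 (DNAJB) and 939.7 TPM (DNAJC). Counts of members 2-fold from the other libraries, 1, 5 and 1 in replicates 1, 2 and 3, were 0, 2 and 0 with pseudocount 5, 0, 0 and 0 among genes averaging 50 TPM or more, 13, 13 and 6 at a fold of 1.5, 3, 1 and 0 with median-of-ratios size factors, and 2, 2 and 0 after quantile normalization. Without a filter on the mean they were 3 in replicates 1 and 3, and with a pseudocount of 0.1 replicate 1 had 2. Fewer or more genes pass by construction of the filters and folds, and the cause of the changes under scaling was not tested. Pair differences moved with a pseudocount of 5 to -1.47 (DNAJA1 minus DNAJA2), 3.24 (DNAJA1 minus DNAJA4) and 4.07 (CCT6A minus CCT6B), and with 0.1 the latter pairs were at 5.32 and 8.01, as a pseudocount does for low genes. The ratio over CCT rows, 2026, was 15.8 for ring subunits and 2.45 without CCT4 and CCT8. Both count among the 63 only because the SD of this ratio over libraries was larger than the ratio itself.

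With each library left out in turn, 59 members stayed detected and the median ranged from 10.1 (without replicate 2) to 13.6 TPM. Counts of 2-fold members ranged from 1 to 6 in replicate 1 (6 without replicate 3), 6 to 7 in replicate 2 and 1 to 7 in replicate 3 (7 without replicate 1), where only 1 library is left for comparison. Family sums stayed within 345 to 457 TPM for HSP90, and the HSPA5 minus HSPA9 difference ranged from -0.58 to -0.17. HSP90AB1 minus HSP90AA1 ranged from -0.11 to 0.06 and thus changed sign. Leaving out members with at least 50% of their span inside other genes, and CCT4 and CCT8, were alternatives chosen after seeing the data. Since depth is unknown, sampling loss and low expression cannot be told apart.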

Other observations

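Relatives of these families that carry other names were also measured. CRYAB, an alpha-crystallin of the small heat-shock family, had 43.1, 75.8 and 28.7 TPM in replicates 1, 2 and 3, above each HSPB gene in every library. CRYAA, the lens form, was listed at 0, and ODF1, a sperm tail protein of the same family, had a mean of 0.340 TPM. Among J proteins without a DNAJ name, 4 of 5 were at 1 TPM or more in every library, beside 49.0% of symbol rows. HSCB, which hands iron-sulfur clusters to the mitochondrial HSP70, was at 16.2, 9.53 and 13.3 TPM, SEC63 of the ER translocon at 4.88, 13.0 and 6.48, and DNLZ at 5.29, 2.74 and 3.83.

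The list of mitochondrial protein quality control held 12 genes, of which 11 had a row. At 1 TPM or more in every library were 10 of these 11, beside 49.0% of symbol rows. After GRPEL1 the highest were GRPEL2, a second exchange factor of HSPA9, at 71.0, 60.9 and 54.4 TPM, and the protease subunit CLPX at 62.4, 65.4 and 45.9 TPM. The exception among those 11 was HTRA2, at 0.506, 5.70 and 1.52 TPM.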
